A study of Arabidopsis thaliana with 6 samples.

Results

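MATE family transporter genes of Arabidopsis thaliana were examined in roots fed either sulfate or thiosulfate. A list of 45 loci of the family was taken, and 42 of them could be read from the array, out of 16548 genes that were named singly and tested. DTX1 (AT2G04040), DTX35 (AT4G25640) and ADS1 (AT4G29140) are on the list but were not analysed here. A gene was represented by its row with the highest mean over the arrays, so rows were chosen by that mean level alone, and the choice mattered for 1 member only, AT5G49130. The listed loci were selected on their family with earlier results of these arrays known, and 6 further MATE genes that the array names singly lie outside the list, so the members are not all MATE genes measured.

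All plants were of the Col-0 wild type and were 8 weeks old, raised hydroponically at 22 °C in short days, in a medium with chloride in the place of sulfate. The sulfate group received sodium sulfate at 300 µM and the thiosulfate group sodium thiosulfate at 150 µM. The groups thus differed in the sulfur salt added back to that medium and in the molar concentration of that salt. These changed together and cannot be told apart here. Root RNA of each group was read on 3 one-colour Affymetrix arrays, labelled as biological replicates, 6 arrays in all. The question put to these arrays is whether MATE transcript levels in the root differ with the sulfur source.

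MATE proteins (multidrug and toxic compound extrusion) are membrane carriers that move organic compounds out of the cytosol, into the vacuole or out of the cell, in exchange for protons or other cations. Among their known cargoes in plants are citrate, flavonoids, alkaloids, hormones and foreign toxic compounds. In the Arabidopsis root the family is best known for FRD3, which loads citrate into the xylem and so keeps iron mobile, and for ALF5, which protects the root from toxic compounds. Neither of these 2 genes was analysed here.

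The deposited values are log2 expression values, one per transcript cluster and array. The array medians over all 38408 rows ran from 2.35 to 2.38 in sulfate and from 2.41 to 2.48 in thiosulfate. Over the genes tested, arrays of one group correlated at 0.980 to 0.983 and arrays of different groups at 0.974 to 0.982. Precision here is limited by the number of arrays. For a typical member the 95% interval of the difference reached 0.45 (log2) to either side, against 0.39 over all genes. Markers fixed for 6 cell classes were read as well. The 6 arrays hold no other tissue for comparison, so these markers cannot test the root label. EXPA7 and EXPA18, expansins of the root hair, were the 2 measured of 4 listed root hair genes. Their means were 2.61 and 2.36 in sulfate and 2.86 and 2.67 in thiosulfate. RCA and LHCB4.1, the 2 measured of 5 listed green tissue genes, stood at 3.76 and 3.19 in sulfate and at 3.67 and 2.98 in thiosulfate. Those means lay above the median level of all genes tested, 2.36, but no detection call was used, so presence of transcript was not established. The part of these 2 genes in any result was not tested. AUR1 and AUR2, the 2 measured of 3 listed markers of dividing cells, stood at 4.24 and 1.301 in sulfate and at 4.25 and 1.51 in thiosulfate. No marker of the endodermis, xylem or phloem was analysed here.

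Most MATE genes gave signals no higher than the median gene in these roots. The median level over the 42 members, each taken as its mean over the 6 arrays, was 1.77 (log2), and that over all genes tested was 2.36. Of the members, 31 stood at or below that median of all genes and 11 above it. When all genes were divided by level into 5 equal bins, 10 members fell into the dimmest bin, 12 into the next, 13 into the middle bin, 5 into the one above and 2 into the brightest. Probe sets differ in how strongly they report a given amount of transcript, so these positions describe the listed values and are not an order of transcript amounts. No detection call was used. The median level of the dimmest bin, 0.99, served as a mark for low signals, and 10 members had at least 1 group mean below it. For those 10 a difference is one between listed values and not a measured fold.

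**Figure D1:**
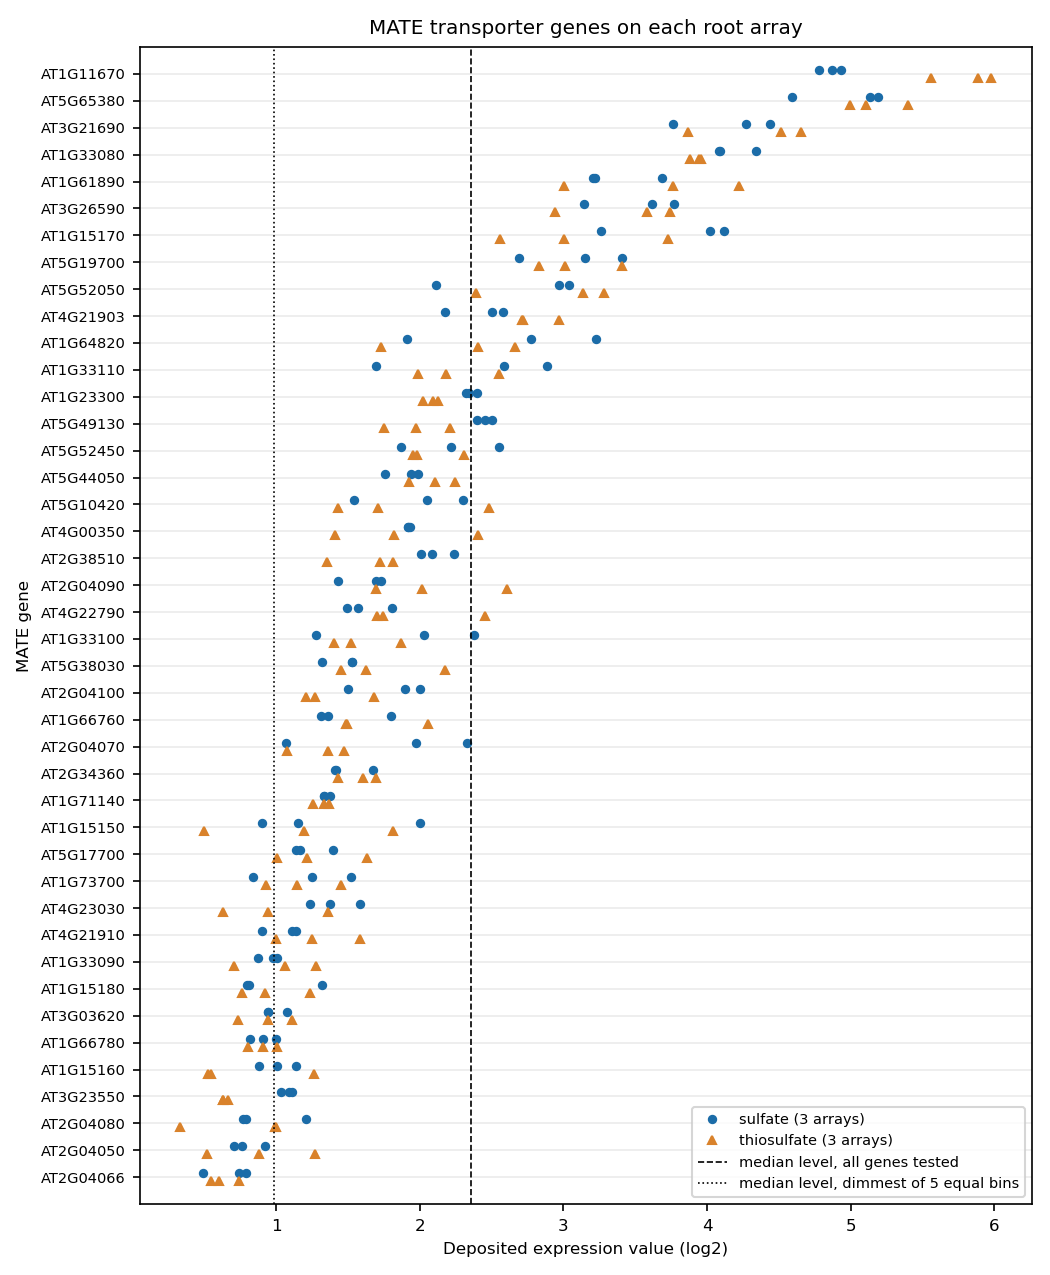
Deposited log2 values of the 42 MATE genes (vertical axis, ordered by mean) on each of 3 sulfate arrays (circles) and 3 thiosulfate arrays (triangles). The dashed line is the median level of all genes tested (2.36) and the dotted line the median of the dimmest of 5 equal bins (0.99), and only 11 members have a mean above the dashed line.

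The 2 members in the brightest bin were AT1G11670 and AT5G65380. AT5G65380 read 5.14, 4.59 and 5.19 on the sulfate arrays and 5.11, 5.40 and 4.99 on the thiosulfate arrays. The groups overlapped, and the log2 difference was 0.20 (95% interval -0.25 to 0.65, limma adjusted p = 0.794). AT3G21690 read 4.44, 3.76 and 4.27 in sulfate and 4.65, 4.52 and 3.87 in thiosulfate. Its groups overlapped as well, with 1 low array in each, and the difference was 0.19 (-0.37 to 0.74). AT1G61890 read 3.69, 3.21 and 3.22 in sulfate and 4.22, 3.76 and 3.002 in thiosulfate, so the thiosulfate arrays held both its highest and its lowest value. Its difference of 0.29 (-0.36 to 0.94) was 0.0099 without thiosulfate replicate 1 and 0.62 without thiosulfate replicate 3. AT3G26590 read 3.14, 3.62 and 3.77 in sulfate and 3.74, 2.94 and 3.58 in thiosulfate. The difference was -0.09 (-0.64 to 0.46), with overlapping groups. The other gene among the 6 brightest members, AT1G33080, is described with its neighbours.

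At the other end were AT2G04066, AT2G04050 and AT2G04080, with means of 0.65, 0.84 and 0.85. AT2G04066 was the dimmest member, and 0.28% of all genes tested had a lower mean. It read 0.79, 0.74 and 0.49 in sulfate and 0.54, 0.74 and 0.60 in thiosulfate, all below the mark for low signals, with a difference of -0.04 (-0.38 to 0.30). AT2G04050 read 0.76, 0.92 and 0.70 in sulfate and 0.88, 1.27 and 0.52 in thiosulfate, and AT2G04080 read 1.21, 0.77 and 0.79 in sulfate and 0.33, 0.99 and 1.0009 in thiosulfate. In both, the thiosulfate arrays were the more scattered and the groups overlapped, with differences of 0.09 (-0.36 to 0.54) and -0.15 (-0.64 to 0.34).

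No MATE gene passed the correction for multiple testing in the comparison of thiosulfate with sulfate. At a limma adjusted p under 0.05, 0 of the 42 members were called, and over all genes 0.0121% were. At an unadjusted limma p under 0.05 there were 5 members (11.9%), close to the 10.0% of all genes: 2 lay higher in thiosulfate (5.39% of all genes) and 3 lower (4.64% of all genes). Those 5 became 2 without thiosulfate replicate 1 (7.17% of all genes), namely AT1G11670 and AT3G23550. For 7 members (16.7%) the values of the groups did not overlap, which was so for 14.7% of all genes. Of these 7, 2 lay higher in thiosulfate (7.11% of all genes) and 5 lower (7.57% of all genes). In bulk root RNA, a change in the number of cells that carry a transcript and a change in its amount per cell cannot be told apart.

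Across the members, 18 had a higher and 24 a lower mean in thiosulfate, a split that moved to 20 and 22 after a further quantile normalization and to 14 and 28 after median centring. Over all genes 52.9% were lower without further scaling, and that share was not taken after either scaling. The split depended on single arrays as well: it was 23 and 19 without thiosulfate replicate 1 and 21 and 21 without sulfate replicate 2. The median difference of the members was -0.03 (log2), beside -0.02 over all genes, and it turned to 0.0174 without thiosulfate replicate 1. Further scaling moved all genes as well. After median centring the median difference was -0.11 in the members and -0.09 over all genes. After quantile normalization it was -0.03 in the members and -0.05 over all genes. The sizes of the differences had a median of 0.20 in the members and 0.15 in all genes, and the within-group SD had a median of 0.28 and 0.21. No member differed by 2-fold or more, as 0.586% of all genes did. The 95% interval excluded a 2-fold difference for 37 members (88.1%, against 92.7% of all genes), 10 of which are the dim members, where a narrow interval of listed values says little about transcript. The 5 whose interval reached 2-fold were AT1G11670, AT1G15170, AT2G04090, AT2G04070 and AT1G64820.

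**Figure D2:**
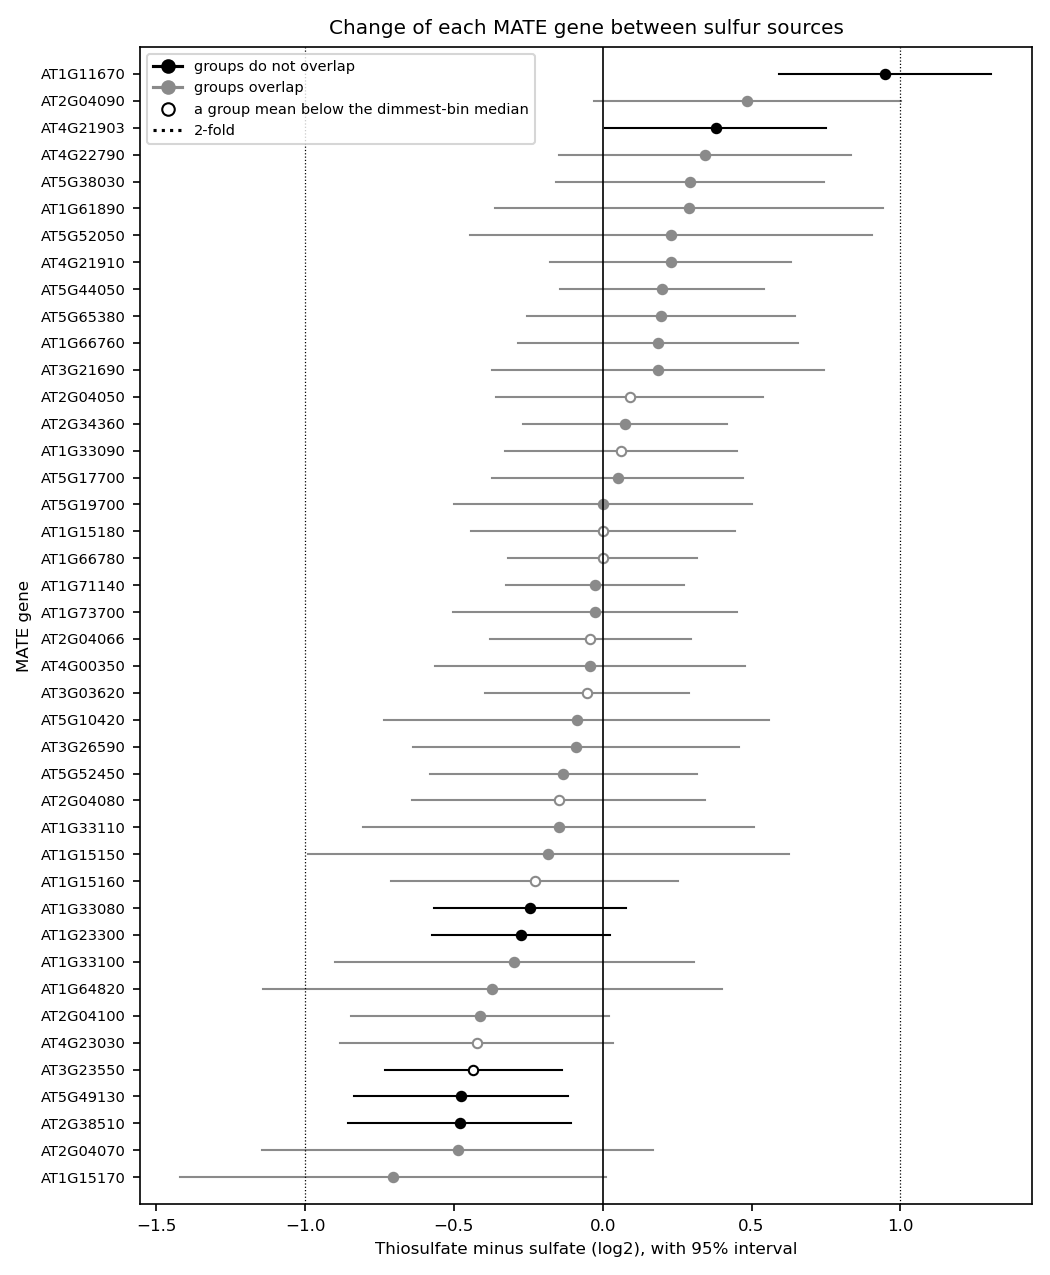
Difference between the group means (thiosulfate minus sulfate, log2, horizontal axis) of each of the 42 MATE genes, with its 95% interval from limma. Black marks the 7 genes whose groups do not overlap, open circles mark the 10 with a group mean below 0.99, and dotted lines mark 2-fold; AT1G11670 stands at 0.95, apart from the other members.

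AT1G11670 had the largest difference of the members in size. It read 4.87, 4.93 and 4.78 in sulfate and 5.98, 5.56 and 5.89 in thiosulfate. Every thiosulfate array lay at least as far as 5.56, while no sulfate array exceeded 4.93. The means were 4.86 ± 0.08 and 5.81 ± 0.22 (SD, n = 3 each), a 1.93-fold higher level in thiosulfate with a log2 difference of 0.95 (SE 0.16, 95% interval 0.59 to 1.31). Its limma p of 0.00019 was the 13th smallest of the 16548 genes, and its adjusted p was 0.204. With 1 array left out in turn, the difference ran from 0.86 to 1.07 and the limma adjusted p from 0.138 to 0.632. The files and the RefSeq table give the gene no name beyond its locus.

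The 5 members that lay lower on every thiosulfate array were AT3G23550, AT5G49130, AT2G38510, AT1G23300 and AT1G33080. AT3G23550 had the smallest within-group SD of all members (0.03), at 1.03, 1.11 and 1.09 in sulfate and 0.63, 0.63 and 0.66 in thiosulfate. Its difference of -0.44 (95% interval -0.73 to -0.14, limma adjusted p = 0.328) is one of listed values, because the thiosulfate mean lay below 0.99. AT2G38510 read 2.01, 2.24 and 2.09 in sulfate and 1.36, 1.72 and 1.81 in thiosulfate. Its thiosulfate arrays were the more scattered, with replicate 1 the lowest. The difference was -0.48 (-0.86 to -0.11, limma adjusted p = 0.396), or 1.40-fold higher in sulfate.

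AT5G49130 is the member with 2 rows on the array, and the rows disagreed. The row with the higher mean read 2.50, 2.45 and 2.398 in sulfate and 1.75, 1.97 and 2.21 in thiosulfate, a difference of -0.48 (-0.83 to -0.12, limma adjusted p = 0.385). The other row read 1.79, 1.87 and 2.09 in sulfate and 1.75, 1.73 and 2.15 in thiosulfate, where the groups overlapped and the difference was -0.04. With the mean of both rows the gene's difference was -0.26, so the separation rests on the row chosen.

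AT1G23300 read 2.34, 2.32 and 2.396 in sulfate and 2.12, 2.02 and 2.09 in thiosulfate. The replicates were close together in both groups, and the difference was small at -0.28 (-0.58 to 0.02, limma adjusted p = 0.529). AT4G21903 was the other member that lay higher on every thiosulfate array. It read 2.58, 2.50 and 2.17 in sulfate and 2.97, 2.72 and 2.71 in thiosulfate, and the nearest arrays of the 2 groups were 0.13 apart. The difference was 0.38 (0.01 to 0.75, limma adjusted p = 0.489). It was 0.28 after the further quantile normalization and 0.31 after median centring. Under either scaling the gene no longer had an unadjusted limma p under 0.05. The same held with an intensity trend and robust prior, and with every row tested.

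**Figure D3:**
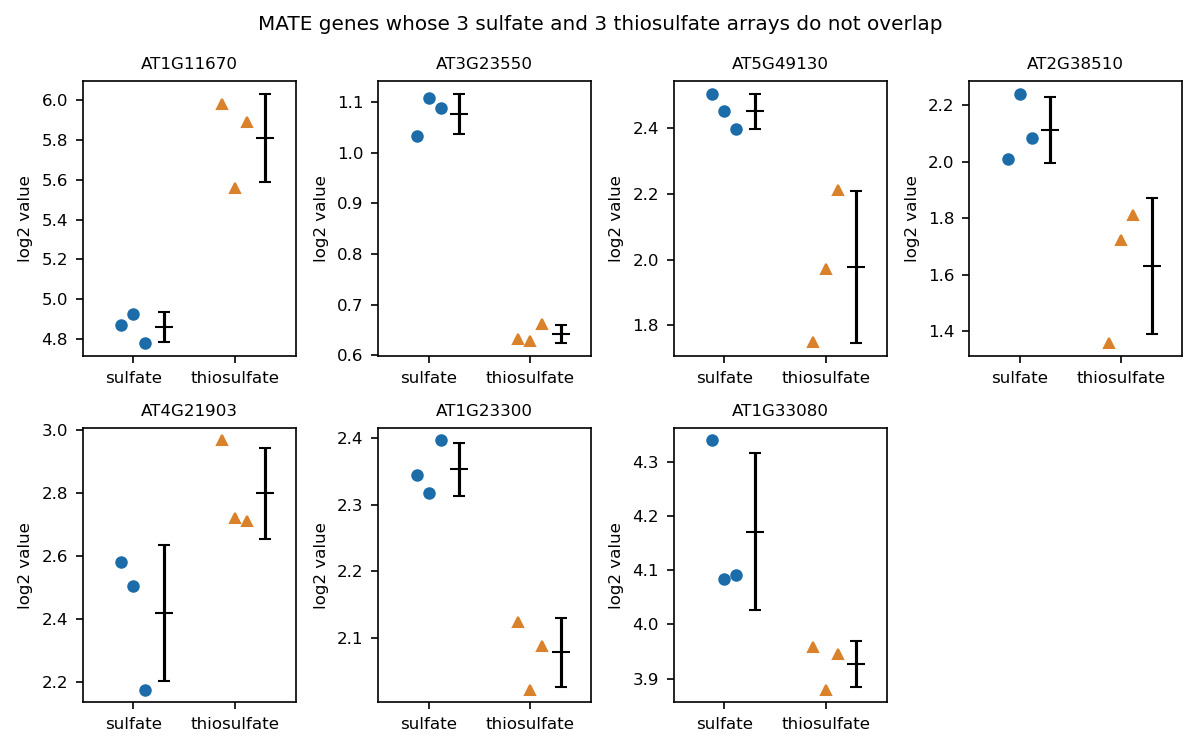
Log2 values (vertical axes, each with its own range) on the 3 sulfate arrays (circles) and the 3 thiosulfate arrays (triangles) for the 7 MATE genes whose groups do not overlap, with the mean and SD of each group as black bars. AT1G11670 and AT4G21903 lie higher in thiosulfate and the other 5 lower.

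Many MATE genes sit beside each other, and 18 of the 42 members form 5 runs in the order of the RefSeq gene table of TAIR10.1. Near-identical neighbours can share signal on an array, and no probe sequences were used here, so the members of a run may not be read independently. The run from AT2G04050 to AT2G04100 holds 6 measured members, and DTX1, first described as a carrier that removes toxic compounds from the cell, precedes it on the chromosome. AT2G04050, AT2G04066 and AT2G04080 had means below 0.99 in both groups. The other 3 members gave more signal, and their differences did not share a sign. AT2G04090 read 1.43, 1.69 and 1.73 in sulfate and 2.60, 2.01 and 1.69 in thiosulfate, a difference of 0.49 (95% interval -0.03 to 1.003, limma adjusted p = 0.520). Its highest value stood on thiosulfate replicate 1. AT2G04100 read 1.999, 1.4996 and 1.90 in sulfate and 1.27, 1.68 and 1.21 in thiosulfate, a difference of -0.41 (-0.84 to 0.02). AT2G04070 read 1.97, 2.33 and 1.07 in sulfate and 1.36, 1.47 and 1.08 in thiosulfate, with a difference of -0.49 (-1.14 to 0.17). In both of these genes the groups overlapped, and in AT2G04070 sulfate replicate 3 lay as low as the lowest thiosulfate array. The difference of AT2G04070 was -0.22 without sulfate replicate 2 and -0.85 without sulfate replicate 3, and that of AT2G04090 was 0.24 without thiosulfate replicate 1. The difference between neighbours was not tested.

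The run from AT1G15150 to AT1G15180 holds 4 members, of which AT1G15170 gave by far the strongest signal. AT1G15170 read 4.12, 4.02 and 3.26 in sulfate and 3.01, 3.73 and 2.56 in thiosulfate. Sulfate replicate 3 fell below thiosulfate replicate 2, so the groups overlapped. Its difference of -0.70 (-1.42 to 0.01, limma adjusted p = 0.506) was the largest negative one among the members, and it ran from -1.02 to -0.43 when 1 array was left out, the latter without thiosulfate replicate 3. AT1G15150 had the largest within-group SD of the members (0.62), at 1.15, 1.998 and 0.90 in sulfate and 0.50, 1.81 and 1.19 in thiosulfate. Replicate 2 was the highest array in each group, and the difference was -0.18 (-0.99 to 0.63). AT1G15160 read 1.003, 0.88 and 1.14 in sulfate and 0.52, 0.54 and 1.26 in thiosulfate, with a difference of -0.23 (-0.71 to 0.25). AT1G15180 read 0.79, 1.32 and 0.81 in sulfate and 0.93, 1.23 and 0.76 in thiosulfate, again highest on replicate 2 of each group, and its means were 0.973 and 0.974.

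The run from AT1G33080 to AT1G33110 also holds 4 members. AT1G33080 read 4.34, 4.08 and 4.09 in sulfate and 3.96, 3.88 and 3.94 in thiosulfate. The groups did not overlap, but their nearest arrays were 0.12 apart, and the difference was -0.24 (-0.57 to 0.08, limma adjusted p = 0.612). Its neighbour AT1G33090 read 1.006, 0.98 and 0.88 in sulfate and 0.71, 1.06 and 1.28 in thiosulfate, values that straddle the mark for low signals, with a difference of 0.06 (-0.33 to 0.45). AT1G33100 read 1.28, 2.03 and 2.38 in sulfate and 1.52, 1.87 and 1.40 in thiosulfate, and AT1G33110 read 2.58, 2.88 and 1.69 in sulfate and 2.55, 2.18 and 1.99 in thiosulfate. In both, the sulfate arrays alone spread over more than 1 log2 unit (1.10 and 1.19) and covered all of the thiosulfate values. Their differences were -0.30 (-0.90 to 0.31) and -0.15 (-0.81 to 0.51), the former -0.61 without sulfate replicate 1 and -0.056 without sulfate replicate 3.

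The remaining runs are pairs. AT4G21910, next to AT4G21903, read 1.11, 0.90 and 1.14 in sulfate and 0.996, 1.58 and 1.25 in thiosulfate. Its difference of 0.23 (-0.18 to 0.63, limma adjusted p = 0.715) had the sign of its neighbour's, with overlapping groups. AT1G66760 read 1.31, 1.80 and 1.36 in sulfate and 2.05, 1.49 and 1.49 in thiosulfate, a difference of 0.19 (-0.28 to 0.66). AT1G66780, its partner across the sugar transporter gene SWEET6, read 0.997, 0.81 and 0.91 in sulfate and 0.91, 1.005 and 0.81 in thiosulfate, with the same mean of 0.91 in both groups.

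**Figure D4:**
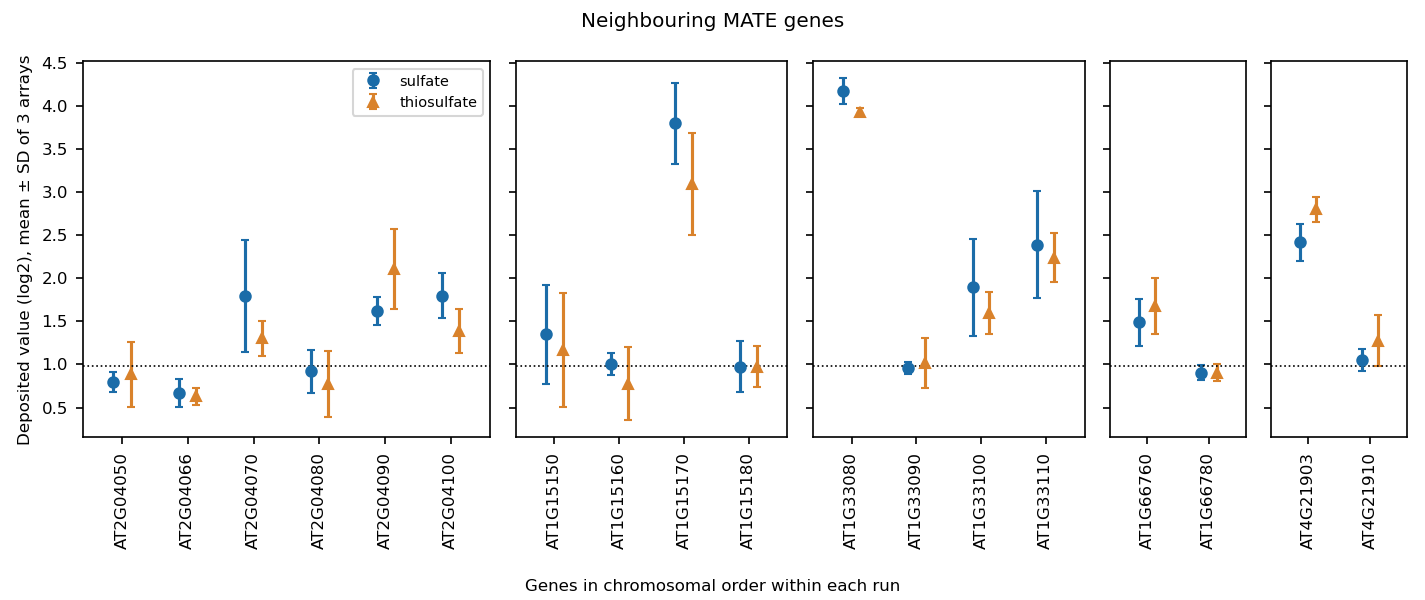
Mean ± SD of the deposited log2 values (vertical axis) of 3 sulfate arrays (circles) and 3 thiosulfate arrays (triangles) for the 18 MATE genes that lie in 5 runs of neighbours, in chromosomal order. The dotted line marks low signals (0.99), and AT1G15170 and AT1G33080 stand well above the rest of their runs.

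AT5G52050 is DTX50, which carries the hormone abscisic acid out of cells. It read 2.11, 2.97 and 3.04 in sulfate and 3.14, 2.39 and 3.28 in thiosulfate. One array of each group stood low, the groups overlapped, and the difference was 0.23 (-0.44 to 0.91, limma adjusted p = 0.844). AT4G22790 read 1.80, 1.57 and 1.49 in sulfate and 1.70, 2.46 and 1.74 in thiosulfate, so its difference of 0.34 (-0.15 to 0.84) came mostly from thiosulfate replicate 2. Without that array the difference was 0.10. AT4G23030 read 1.24, 1.58 and 1.37 in sulfate and 0.63, 1.36 and 0.94 in thiosulfate, a difference of -0.42 (-0.88 to 0.03, limma adjusted p = 0.528) between listed values, since the thiosulfate mean was 0.97. It was -0.25 without thiosulfate replicate 1.

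Further members were noted for the spread of their values or for equal group means. AT4G00350 read 1.91, 1.93 and 1.92 in sulfate, the closest replicates of any group of any member, and 1.41, 1.82 and 2.402 in thiosulfate. AT1G64820 read 3.22, 1.91 and 2.77 in sulfate and 2.402, 1.73 and 2.67 in thiosulfate, with replicate 2 the lowest array of each group. AT5G19700 read 2.69, 3.41 and 3.15 in sulfate and 3.01, 3.41 and 2.83 in thiosulfate, and its means of 3.08 were the same to 2 decimals. AT1G71140 had the smallest within-group SD (0.04) of the members with both means above 0.99 and lay between 1.26 and 1.38 on all 6 arrays. Counting these 4, the 12 members whose differences are not given one by one had differences from -0.37 to 0.29 and limma adjusted p-values of 0.671 or more.

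Other MATE genes and the systems around the family were read from lists. A gene of these lists counted as measured only if a row named it alone. Of 12 MATE loci outside the 45, 6 were measured, and FRD3, EDS5, TT12 and ALF5 were not among them. By limma 0 of the 6 were called after adjustment (0.0121% of all genes) and 3 without it (10.0% of all genes), at a threshold of 0.05, and 3 lay higher and 3 lower, or 2 and 4 after either further scaling. AT4G38380 read 4.45, 4.23 and 4.59 in sulfate and 3.88, 4.20 and 4.02 in thiosulfate, a difference of -0.40 (95% interval -0.76 to -0.04, limma adjusted p = 0.452). AT1G71870 read 4.501, 4.64 and 3.80 in sulfate and 4.81, 4.88 and 4.85 in thiosulfate, a difference of 0.54 (0.05 to 1.02, limma adjusted p = 0.455) in which sulfate replicate 3 stood low. AT1G47530 read 6.30, 5.96 and 6.62 in sulfate and 5.79, 6.12 and 5.38 in thiosulfate, with overlapping groups and a difference of -0.53 (-1.05 to -0.01, limma adjusted p = 0.489). The unadjusted count of 3 fell to 0 without sulfate replicate 3, thiosulfate replicate 1 or thiosulfate replicate 3, and to 1 without sulfate replicate 1. With all arrays kept, it was 2 after either further scaling and 1 with the replicate block or with every row tested.

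Proton pumps build the gradients that drive MATE carriers. Of 21 listed, 4 were measured, all belonging to the vacuolar ATPase. By limma 0 were called at a threshold of 0.05, adjusted (0.0121% of all genes) or unadjusted (10.0% of all genes). VHA-A2 and VHA-A3, subunits of the pump in the vacuolar membrane, had differences of 0.20 (-0.11 to 0.51) and -0.11 (-0.53 to 0.32), and the median of the 4 was -0.02. Flavonoids are known cargo of the family, and 5 of 13 listed genes of their synthesis were measured. All 5 had lower means in thiosulfate, also after either further scaling, as did 8752 of all 16548 genes. By limma 0 were called after adjustment (0.0121% of all genes) and 2 without it, both lower (4.64% of all genes). UGT78D1, a flavonol glycosyltransferase, read 1.61, 1.56 and 1.64 in sulfate and 1.16, 0.99 and 1.39 in thiosulfate (difference -0.42, 95% interval -0.76 to -0.08, limma adjusted p = 0.413). BAN, an anthocyanidin reductase, read 1.48, 1.44 and 1.23 in sulfate and 0.98, 0.98 and 1.06 in thiosulfate (difference -0.38, -0.70 to -0.06, limma adjusted p = 0.426). The 5 genes were dim, with means between 0.94 and 1.46, and their unadjusted count fell to 0 without thiosulfate replicate 2 and to 1 without any one of sulfate replicates 1, 2 and 3 or thiosulfate replicate 1. The lists of full-size ABCG transporters and of the aluminium response had no member with a row that names 1 gene and were not analysed here. Whether rows without such a name report these genes was not examined.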

How the data were processed

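The sample titles give each array its group and number and call the replicates biological. They name no separate cultures, and a p-value here sets a difference against the spread of these samples only. Whether a difference would hold in new cultures was not tested. The authors deposited log2 values made with RMA in Transcriptome Analysis Console 4.0, per the submitters' processing notes. RMA corrects background, normalizes between arrays and summarises probes. The RMA variant and the genome build of the array were not given in the sources used. Background and probe summary could not be varied, and no scan batch was available to test.

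Rows were named through the platform's gene table, which gives 1 gene for 16722 of 38408 rows. Rows with several genes (759) or not listed (20927) were left out. Symbols came from the RefSeq gene table of TAIR10.1, matched by gene identifier for 16574 rows. The test was limma, version 3.58.1, run under R 4.3.3 (group term, empirical Bayes without trend, two-sided, Benjamini-Hochberg over 16548 genes, threshold 0.05), after a test on simulated data. In those data 60.3% of 2-fold and 97.3% of 4-fold changes passed a limma adjusted p of 0.05. The number of changed genes in the real data is not known, so these shares are not the power of the comparison here. Tables used Python 3.11.15 with pandas 2.3.3, and plots used matplotlib 3.10.9.

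Genes described one by one were those with an unadjusted p under 0.05 or groups that did not overlap, the 6 brightest, the 3 dimmest, the runs of neighbours, and 4 measured members chosen for work known on the gene itself; AT4G00350, AT1G64820, AT5G19700 and AT1G71140 were picked after their values were seen. The members and lists were chosen with earlier results of these data known. Same-numbered arrays deviated together at correlations of 0.056, -0.025 and -0.032, and differently numbered ones at -0.055 to 0.079. The sample titles name no pairing, so the main fit used none, and a fit with a replicate block was run as an alternative. Alternatives were a further quantile normalization, median centring, leaving out the dimmest 25% of genes, averaging rows, an intensity trend with robust prior, the replicate block, testing every row, and leaving out each array.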

Additional observations from a re-analysis of the deposited data

How the results depend on the processing

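No MATE gene passed a limma adjusted p of 0.05 in any of the 13 alternatives, and AT1G11670 ran from 0.103 (intensity trend and robust prior) to 0.632. Their count at an unadjusted limma p under 0.05 was 5, beside 10.0% of all genes. It was 8 after median centring (11.3% of all genes) and 8 with the replicate block (10.4%). With 1 array left out it was 2 to 7, beside 7.17% to 10.6% of all genes. Over all genes the adjusted count was 2, 0 with the replicate block (1717 at an unadjusted p under 0.05), 0 with every row tested (3502 rows), and 0 to 2 with 1 array left out. The sample titles do not say whether same-numbered arrays belong together, and correlations over all genes cannot settle this for single genes. Which of the fits, with or without the block, suits these arrays better was therefore not decided. At an unadjusted p under 0.05, 892 genes lay higher and 768 lower, or 635 and 1050 after quantile normalization and 585 and 1286 after median centring. Of the 42 members, 22 kept the sign of their difference in every alternative that tested them and 20 changed it in at least 1. Of those 20, 13 did so only with 1 array left out. The other 7 did so under a scaling as well. Under quantile normalization the differences were 0.0353 for AT1G66780, 0.0070 for AT1G71140, 0.0086 for AT1G73700 and -0.12 for AT5G19700. Under median centring they were -0.0703 for AT1G15180, -0.0100 for AT1G33090, -0.0207 for AT5G17700 and -0.0695 for AT5G19700. With 1 array left out, differences ran from -0.51 to 0.15 for AT1G15150, -0.13 to 0.17 for AT1G15180, -0.0697 to 0.22 for AT1G33090, -0.50 to 0.0995 for AT1G33110, -0.0019 to 0.34 for AT1G66760, -0.0495 to 0.0495 for AT1G66780, -0.0512 to 0.0042 for AT1G71140, -0.21 to 0.13 for AT1G73700, -0.0993 to 0.28 for AT2G04050, -0.13 to 0.0156 for AT2G04066, -0.26 to 0.0728 for AT2G04080, -0.14 to 0.044 for AT3G03620, -0.0119 to 0.43 for AT3G21690, -0.27 to 0.15 for AT3G26590, -0.30 to 0.19 for AT4G00350, -0.39 to 0.13 for AT5G10420, -0.12 to 0.19 for AT5G17700, -0.20 to 0.16 for AT5G19700, -0.067 to 0.50 for AT5G52050 and -0.30 to 0.036 for AT5G52450. The cause was not tested.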
